A study of Mus musculus with 26 samples.

Results

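The module described here is a list of 44 nuclear genes that encode subunits of the mitochondrial respiratory chain. The genes were taken from the list by symbol, and all 44 were found among the 55414 gene identifiers that the count tables of both tissues share. The list holds 24 subunits of complex I, 7 of complex III including cytochrome c1, and 9 of complex IV including Ndufa4. It also holds the 4 subunits of complex II, succinate dehydrogenase, although that complex is not in the module's usual name. The rule that lists the members uses no measured value, and every member passed the filter on low counts in each fit.

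The respiratory chain sits in the inner mitochondrial membrane and passes electrons from NADH and succinate to oxygen. Complex I takes electrons from NADH, complex II from succinate, complex III hands them to cytochrome c, and complex IV gives them to oxygen. Complexes I, III and IV pump protons, and ATP synthase uses the resulting gradient, which uncoupling protein 1 (Ucp1) of brown fat dissipates as heat. Brown adipocytes are packed with mitochondria and surround much of the mouse aorta, whereas the wall itself is made of smooth muscle, endothelium and fibroblasts.

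Poly(A) RNA was sequenced from 26 libraries, 13 of aorta, the large elastic artery, and 13 of mesenteric arteries, the small muscular vessels of the gut. The study asked how loss of sphingosine kinase 1 (Sphk1), which makes the signalling lipid sphingosine-1-phosphate, in smooth muscle alters arterial RNA in hypertension. All mice were male, on a C57BL6J background, and carried loxP-flanked (f/f) Sphk1 alleles. In each tissue there were 4 libraries of WTf/f Sham, which had no Cre and no angiotensin II, and 4 of WTf/f AngII. The other 5 were SMC KO-Sphk1 AngII, in which Cre under the smooth muscle protein 22-alpha (Tagln) promoter deletes Sphk1. Both AngII groups received angiotensin II, a vasoconstrictor peptide that raises blood pressure, at 490 ng/kg/min for 14 days from a subcutaneous osmotic minipump placed at 12 to 14 weeks of age. Sham mice with the deletion were not analysed here, which leaves the deletion to be compared under infusion alone. Tagln-Cre is meant for smooth muscle and is meant to leave Sphk1 in the other cells of the wall. In which cells Sphk1 was deleted was not measured in these bulk libraries. The extraction protocol counts mice in the same numbers. It does not say which aortic and mesenteric libraries came from the same mouse.

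Reads counted in genes numbered between 23.49 and 32.25 M in the libraries of aorta and between 17.54 and 30.05 M in those of mesenteric arteries. Sphk1 averaged 19.4 ± 6.12 CPM (counts-per-million, SD, n = 4) in WTf/f AngII aorta and 2.61 ± 0.735 (n = 5) in SMC KO-Sphk1 AngII aorta, and the corresponding mesenteric means were 13.4 and 3.76 CPM. In the aorta the summed CPM of 10 smooth muscle markers was 20270 to 43510, and in mesenteric arteries it was 23820 to 48280, so the labelled tissue's defining cell was present in every library. Brown adipocyte markers, 14 genes, summed to 471.6 to 1059 CPM per aortic library and to 186.5 to 315.3 per mesenteric library. Ucp1, the defining brown fat gene, was between 16.1 and 370 CPM in every aortic library, and was at 0 in 8 of 13 mesenteric libraries and at most 0.22 CPM in the rest. Gut and pancreas markers, 10 genes, ranged from 26.05 to 46670 summed CPM across the mesenteric libraries.

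Promoter sequences are shown for 4 genes, chosen to show start regions of different kinds. The windows run from 250 bases before to 50 after the annotated start and come from RefSeq on GRCm38.p6, whereas the counts were made on GRCm39, so their coordinates belong to the older build. A window was found for 34 of the 44 members. Motifs were searched on both strands and are in capitals. One is CCGGAAG, the core bound by the ETS factor GABPA (nuclear respiratory factor 2), which reads CTTCCGG from the other strand. Another is GCATGCGC, the core bound by nuclear respiratory factor 1 (NRF1). Ndufa6 (chr15:82354242-82354541, minus strand), an accessory subunit of complex I, was lower in AngII than in Sham aorta and holds the NRF1 letters once. Sdhb (chr4:140961021-140961320, plus strand), the iron-sulfur subunit of complex II, rose with brown adipocyte markers across aortic libraries and holds both motifs once. That call rested on few libraries, as given below. Cox8a (chr19:7217567-7217866, minus strand), the broadly expressed form of a small complex IV subunit, holds the GABPA letters in 2 places. Cox8b (chr7:140900397-140900696, minus strand), its muscle and brown fat form and not a member, holds neither.
Ndufa6: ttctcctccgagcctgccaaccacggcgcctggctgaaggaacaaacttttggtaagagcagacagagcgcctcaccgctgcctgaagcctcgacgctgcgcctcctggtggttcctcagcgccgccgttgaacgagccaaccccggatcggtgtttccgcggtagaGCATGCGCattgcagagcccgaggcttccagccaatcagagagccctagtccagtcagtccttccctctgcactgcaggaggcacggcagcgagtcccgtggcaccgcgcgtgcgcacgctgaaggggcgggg
Sdhb: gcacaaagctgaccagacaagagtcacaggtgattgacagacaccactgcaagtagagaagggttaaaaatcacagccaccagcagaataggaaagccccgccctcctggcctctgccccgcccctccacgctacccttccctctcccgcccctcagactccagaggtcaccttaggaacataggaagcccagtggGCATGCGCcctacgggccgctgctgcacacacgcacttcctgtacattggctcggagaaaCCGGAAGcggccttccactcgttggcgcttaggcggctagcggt
Cox8a: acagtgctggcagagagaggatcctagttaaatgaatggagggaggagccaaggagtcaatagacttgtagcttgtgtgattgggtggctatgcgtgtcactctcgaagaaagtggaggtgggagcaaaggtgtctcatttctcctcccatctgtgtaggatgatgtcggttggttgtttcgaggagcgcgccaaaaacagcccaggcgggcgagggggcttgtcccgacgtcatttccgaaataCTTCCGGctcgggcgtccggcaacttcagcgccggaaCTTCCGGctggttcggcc
Cox8b: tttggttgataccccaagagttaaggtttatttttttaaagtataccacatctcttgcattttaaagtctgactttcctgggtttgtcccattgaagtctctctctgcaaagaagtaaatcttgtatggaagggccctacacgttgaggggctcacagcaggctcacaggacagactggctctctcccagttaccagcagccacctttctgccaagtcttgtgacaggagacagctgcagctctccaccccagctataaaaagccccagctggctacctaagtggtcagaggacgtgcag
CCGGAAG was present in the windows of 8 of 34 members, 23.5%, against 9.93% of 27025 genes with a window. The 8 were Cox6b1, Cox8a, Ndufb7, Ndufs3, Ndufs8, Sdhb, Sdhd and Uqcrh. GCATGCGC was in those of Ndufa6, Ndufa8, Sdhb and Uqcrc1, 11.8% of members and 3.05% of all genes. The YY1 motif AAGATGGCG was in the windows of Ndufa9, Ndufc1 and Ndufs7, 8.82% of members and 1.64% of all genes. The motif of the oestrogen-related receptors, TCAAGGTCA, was in that of Sdhd alone, 2.94% against 0.466%. The windows of Cox5a, the member with the steepest slope on brown markers, and of Ndufb10, lower in the deletion group than in Sham aorta, held none of these motifs. These are matches of letters, not sites, and no factor's binding was measured. A link between motifs and RNA changes was not tested.

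The subunit genes were abundantly expressed in both vessels. Their summed level in WTf/f Sham aorta was 3129 ± 595 CPM (SD, n = 4), with the 4 libraries at 2727, 3083, 2722 and 3985. It was 2704 ± 428 CPM in WTf/f AngII aorta, with libraries at 2810, 2581, 3224 and 2201, and 2937 ± 249 (n = 5) in SMC KO-Sphk1 AngII aorta, with libraries at 3111, 3093, 2605, 2734 and 3141. The groups overlapped, and the widest gaps were made by Sham 4 at the top and AngII 4 at the bottom. In mesenteric arteries the sums were 2990 ± 158 in Sham, 2865 ± 139 in AngII and 3023 ± 451 in the deletion group, whose libraries spanned 2472 to 3706 CPM. CPM here is scaled over all 26 libraries together.

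**Figure D1:**
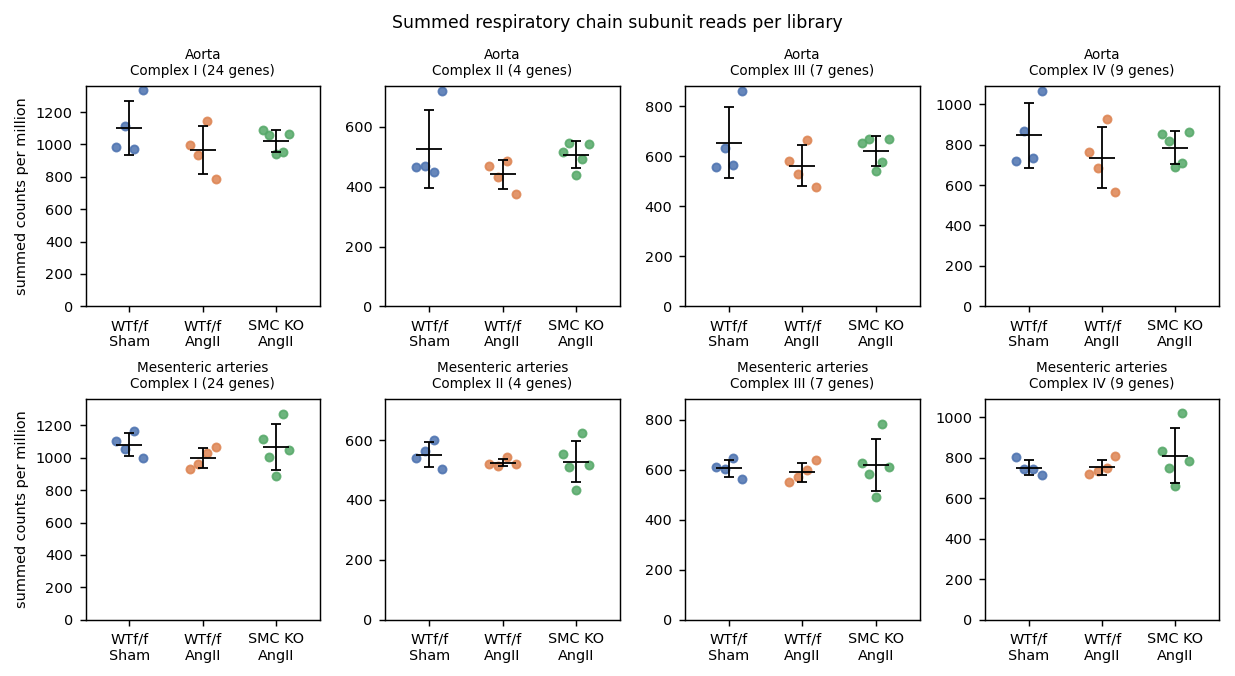
Summed CPM of the subunit genes of each complex in every library, by group, for aorta (upper panels) and mesenteric arteries (lower panels). Points are libraries, bars the mean and SD. The point at the top of the Sham group in each aortic panel is Sham 4, which stood at 720 CPM for complex II while the next Sham library was at 468.

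Per kilobase of transcript, the most abundant members were Cox4i1, the regulatory subunit of complex IV, and Uqcrh, the hinge protein of complex III. In WTf/f Sham aorta Cox4i1 was at 269.4 and Uqcrh at 257 CPM per kb, and in WTf/f Sham mesenteric arteries Uqcrh was at 271.4 and Cox4i1 at 250.9. The lowest members in both tissues were Ndufc1 and Ndufb2, accessory subunits of complex I, at 18.24 and 19.61 CPM per kb in Sham aorta. Their order depends on the transcript taken for each gene, of 1249 bases for Ndufc1 and 455 for Ndufb2. The median member was at 70.11 CPM per kb in Sham aorta and at 61.09 in Sham mesenteric arteries. By complex, the Sham aorta medians in CPM per kb were 51.08 for complex I, 79.1 for complex II, 71.35 for complex III and 146.7 for complex IV. Complex IV was the highest and complex I the lowest of the 4 in Sham mesenteric arteries as well, at 136.2 and 49.23.

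Which subunits responded to angiotensin II in the aorta was read from the comparison of WTf/f AngII with WTf/f Sham. By edgeR's quasi-likelihood test, with p-values adjusted over all 16863 genes and a call at an adjusted p below 0.05, 2 of 44 members fell and none rose. Among all genes tested, 10.8% were called lower and 14.7% higher, 25.5% in all. The estimates were nearly all on one side. In 43 of 44 members the log2 fold change was below 0, with a median of -0.225, while the median over all genes was -0.000518. The range ran from -0.43 for Ndufb9, an accessory complex I subunit with an adjusted p of 0.182 by edgeR, to 0.03 for Ndufc2. An unadjusted p below 0.05 was reached by 13 members, against 37.2% of all genes. The 95% interval lay within 1.5-fold in either direction for 33 members and within 2-fold for all 44.

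Sdhc encodes the large membrane anchor of complex II, which holds haem and binds ubiquinone. In the 4 Sham aortas it was at 102.2, 125.3, 110.3 and 134 CPM, and in the 4 AngII aortas at 87.8, 92.9, 109.1 and 88.3 CPM. In SMC KO-Sphk1 AngII it was at 100.4, 102.1, 95.1, 90.2 and 93.6 CPM. AngII 3 was the one infused control library inside the Sham range. Sdhc fell by 0.33 on the log2 scale (SE 0.091, interval -0.526 to -0.138, adjusted p = 0.0151, edgeR), a fold of 0.794. Among the other complex II subunits, Sdha, Sdhb and Sdhd, none was called, and the median of the 4 was -0.234.

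Ndufa6, an accessory subunit in the peripheral arm of complex I, was the member whose Sham and AngII aortas did not overlap. Among all genes 11.7% were lower in every AngII library than in every Sham library. Ndufa6 was at 45.5, 52.6, 47 and 57.3 CPM in Sham aorta and at 41, 42.6, 45.1 and 32.9 CPM in AngII aorta. In the deletion group it was at 41.4, 44.7, 37.2, 38.5 and 43.1 CPM. The fall was by 0.34 on the log2 scale (SE 0.0996, adjusted p = 0.0222, edgeR). The other 23 complex I members had no call, and the complex I median was -0.226.

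By edgeR no complex III or IV member was called, and their medians were -0.246 and -0.193. The complex III member with the smallest p was Uqcrb, which lies next to the ubiquinone site. It was at 77, 89.8, 74.6 and 88.5 CPM in Sham, at 65.1, 71.2, 85.8 and 51.6 in AngII, and at 72.2, 73.7, 65.7, 62.4 and 78.4 in the deletion group. Its log2 fold change was -0.28 ± 0.126 (SE) with an adjusted p of 0.115 by edgeR. For complex IV the smallest p belonged to Cox8a, at 79.2, 103.9, 89.6 and 129.6 CPM in Sham and 81.5, 73.8, 93.9 and 59.2 in AngII aorta. Its log2 fold change was -0.39 ± 0.157 with an adjusted p of 0.0811 by edgeR, while DESeq2 and limma voom called it lower, with adjusted p of 0.0494 and 0.0413. The AngII and Sham libraries of both genes overlapped.

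**Figure D2:**
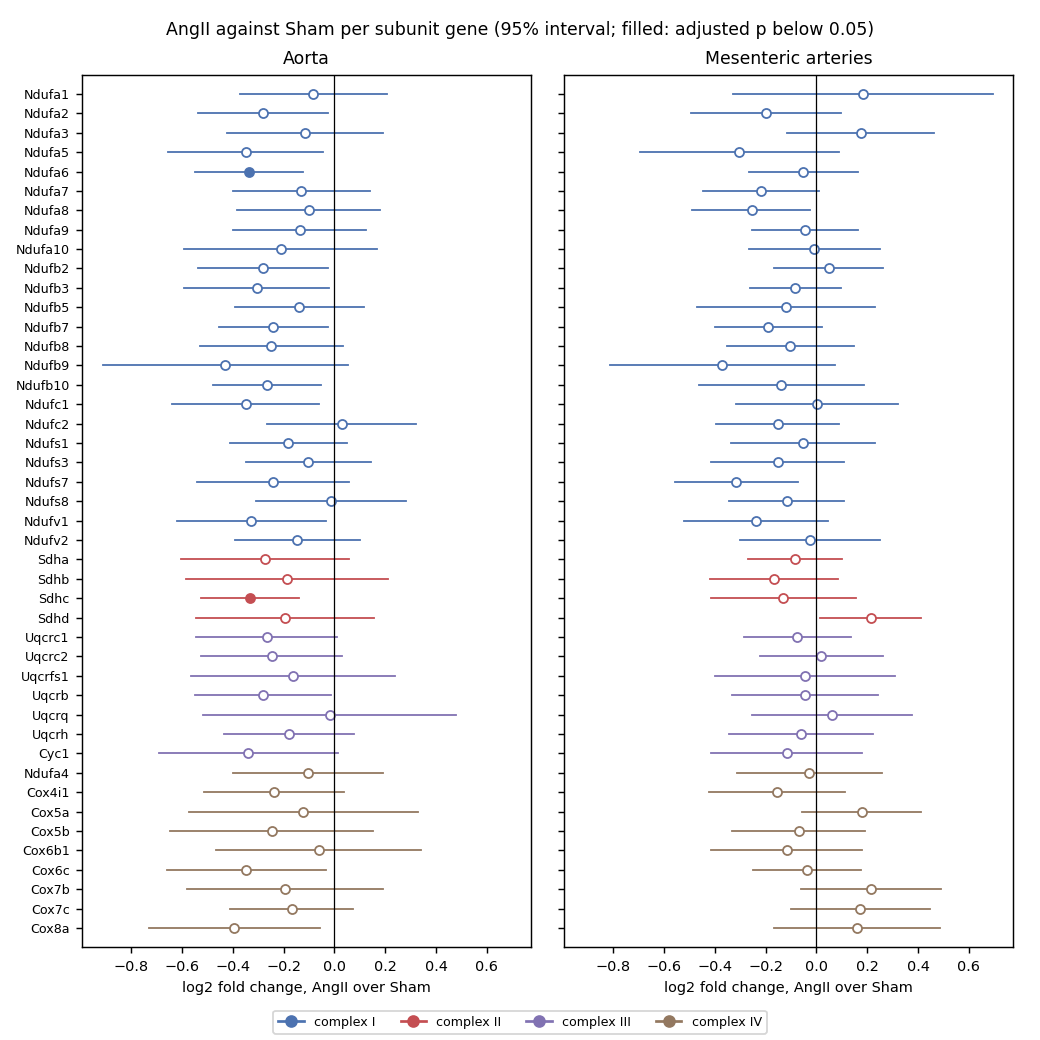
Log2 fold change of AngII over Sham with its 95% interval for each of the 44 subunit genes, in aorta (left) and mesenteric arteries (right), coloured by complex. Filled points mark an adjusted p below 0.05, which Ndufa6 and Sdhc reached in the aorta and no member in the mesenteric arteries. In the aorta 43 of 44 points lie left of 0.

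The size of this shift depended on which libraries were included. Sham 4 was the highest of 13 aortic libraries for 36 of 44 members and AngII 4 the lowest for 40. They were also the highest and the lowest in Ucp1, at 370 and 16.1 CPM. A fit without both was chosen after the data had been seen. Leaving out a high Sham and a low AngII library shrinks a fall by construction and leaves fewer libraries per group. In that fit no member was called by edgeR, 24 of 44 estimates were below 0 and their median was -0.02. Ndufa6 was then at -0.193 (adjusted p = 0.125, edgeR) Sdhc at -0.242 (adjusted p = 0.0828) and Cox8a at -0.15 (adjusted p = 0.438). Leaving out 1 library at a time gave between 1 and 14 calls, all lower. There was 1 without Sham 2 or without Sham 4, 4 without Sham 1, and 14 without AngII 3, the highest AngII library. The shares of all genes called in these fits are not given here. Whether calls changed for the members or for genes at large was not tested.

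Other cell markers moved between the same groups of aortas. All 8 macrophage markers and 5 of 8 fibroblast markers rose with AngII, and 2 of 10 smooth muscle markers fell. Of 13 brown adipocyte markers tested 3 fell and 1 rose, with a median of -0.399. The summed CPM of the fibroblast list was 7480 to 7995 in Sham and 12860 to 28260 in AngII aorta, and that of the smooth muscle list 34860 to 43510 and 20270 to 38830. Their part in the subunit values was not tested. In bulk tissue, fewer cells of a type and less RNA per cell cannot be told apart.

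The effect of the smooth muscle deletion during infusion was read from SMC KO-Sphk1 AngII against WTf/f AngII. In the aorta edgeR called no member in either direction, and 0.00593% of all genes were called, which is Sphk1 alone. No member had groups that did not overlap, where 0.48% of all genes were higher and 0.486% lower in every library. No member reached an unadjusted p below 0.05, against 3.61% of all genes, and limma voom and DESeq2 called none. The estimates leaned upward, with 39 of 44 above 0 and a median of 0.105, against -0.00896 over all genes. For 38 members the 95% interval lay within 1.5-fold. This comparison shares the WTf/f AngII libraries with the one above, so a low AngII library moves both. Without AngII 4 the median was -0.00583.

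The members with the smallest p in this comparison were Sdha, the flavoprotein that oxidises succinate, and Ndufs1, the largest complex I subunit of the electron input arm. Sdha was at 240.8, 215.3, 218.9 and 182.1 CPM in AngII aorta, and at 264.6, 279, 216.2, 256.2 and 282.5 in the deletion group. In Sham aorta it was at 237.7, 207.9, 215.8 and 367.7 CPM. AngII and deletion libraries overlapped, and the highest value of all was a Sham library. The log2 fold change of Sdha was 0.28 ± 0.147 (SE, interval -0.0399 to 0.59, adjusted p = 0.981, edgeR). Ndufs1 was at 91.2, 83.9, 79.3 and 82.2 CPM in AngII, and at 95.6, 95.7, 86.3, 98.3 and 101 in the deletion group, with a log2 fold change of 0.18 ± 0.102 (adjusted p = 0.981, edgeR).

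Against WTf/f Sham, the deletion group's aortas had 5 members lower and none higher by edgeR, where 14.2% of all genes were lower and 16.6% higher, 30.8% together. Besides Sdhc (-0.31 ± 0.086, adjusted p = 0.0139) and Ndufa6 (-0.32 ± 0.0941, adjusted p = 0.0186), these were 3 further accessory subunits of complex I. Ndufb7 fell by 0.32 (SE 0.0952, adjusted p = 0.0205), Ndufa2 by 0.33 (SE 0.114, adjusted p = 0.0413) and Ndufb10 by 0.27 (SE 0.0948, adjusted p = 0.0457), all on the log2 scale by edgeR. Ndufb7 was at 41.6, 48.2, 43.2 and 51.1 CPM in Sham and at 38.6, 37.7, 34.6, 35.5 and 40.3 in the deletion group, with no overlap. Ndufb10 was at 68.3, 77.8, 64.4 and 80.5 in Sham and at 64.7, 62.1, 57.7, 56.9 and 64.4 in the deletion group, which overlapped by a narrow margin. With the aortic libraries scaled apart from the mesenteric ones, as in the test, 4 members did not overlap, namely Ndufa6, Ndufb7, Ndufb10 and Sdhc, against 15.5% of all genes lower in every library. The median of the 44 was -0.109, and 0.0107 without Sham 4. In the same comparison all 8 macrophage markers and 6 of 8 fibroblast markers rose and 5 of 10 smooth muscle markers fell, and their part in the subunit values was not tested. Leaving out 1 library gave 1 to 7 lower calls, with 1 without Sham 4, 2 without Sham 2 and 3 without any one of the deletion libraries 2 to 5. Without Sham 4 there was also 1 higher call.

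In mesenteric arteries edgeR called no subunit gene in any comparison between groups. For AngII against Sham, edgeR called 0 of 44 members, 3 had an unadjusted p below 0.05 against 10.6% of all genes, and DESeq2 and limma voom called none. Over all genes 0.183% were called higher and none lower. The median member was at -0.0726 against -0.000366 over all genes, 33 of 44 estimates were below 0, and 41 intervals lay within 1.5-fold.

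Ndufs7, the complex I subunit that carries the last iron-sulfur cluster before ubiquinone, was the member whose mesenteric Sham and AngII libraries did not overlap, where 4.23% of all genes were lower and 4.53% higher in every AngII library. It was at 40.1, 42.7, 53.4 and 39.2 CPM in Sham, at 33.4, 33, 38 and 36.7 in AngII and at 41.8, 38.4, 34.5, 47 and 42.6 in the deletion group. The log2 fold change of AngII over Sham was -0.32 ± 0.111 (SE, adjusted p = 0.34, edgeR). Sdhd, the small membrane anchor of complex II, leaned the other way. It was at 58.7, 57.6, 48 and 50.1 CPM in Sham, at 62.2, 65.8, 62.8 and 58.4 in AngII, and at 66.2, 61.1, 58.2, 76.1 and 60.3 in the deletion group. Its log2 fold change after AngII was 0.21 ± 0.0913 (adjusted p = 0.442, edgeR), and the groups overlapped. For complexes III and IV the smallest p values belonged to Cyc1, cytochrome c1, at -0.12 ± 0.137 (adjusted p = 0.788) and Cox7b, a small complex IV subunit, at 0.21 ± 0.127 (adjusted p = 0.57), both by edgeR. Cyc1 was at 68.4, 71.7, 76 and 70.7 CPM in Sham and 60.6, 64.3, 70.1 and 70 in AngII, and Cox7b at 53.7, 48.9, 35.1 and 47.6 and at 52.6, 54.4, 53 and 55.4.

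The deletion comparison in mesenteric arteries also gave 0 calls among members by edgeR, against 0.00571% of all genes. One member had an unadjusted p below 0.05, where 4.98% of all genes did, and DESeq2 and limma voom called none. The median was 0.0899 against 0.0224 over all genes, 38 of 44 estimates were above 0, and 43 intervals lay within 1.5-fold. Deletion library 4 was the highest of 13 for 29 of 44 members, and without it the median was 0.0206 and 20 estimates were below 0. In that library 14.23% of records were not aligned. In deletion library 3 and AngII 1, the lowest for 18 and 12 members, 14.7% and 12.02% were not. Among mesenteric libraries, deletion library 2 was the remaining one of 4 above 10%, at 11.43%. The member with the smallest p was Ndufa8, an accessory complex I subunit with twin cysteine motifs, at 28.6, 32.3, 36.6 and 38.9 CPM in AngII and 40.4, 38.5, 35.6, 46.5 and 39.1 in the deletion group. Its log2 fold change was 0.24 ± 0.102 (adjusted p = 0.798, edgeR). AngII and deletion libraries overlapped for every member, while 0.611% of all genes were higher and 1.04% lower in every deletion library. Ndufb2 came next, lower in the deletion group at -0.20 ± 0.0932 (adjusted p = 0.798, edgeR). It was at 7.54, 8.79, 8.57 and 8.09 CPM in AngII and 6.83, 6.94, 7.16, 7.76 and 7.12 in the deletion group, where only the fourth library lay inside the AngII range. Against Sham, no member of the deletion group was called by edgeR, where 0.457% of all genes were higher and 0.251% lower, 3 members had an unadjusted p below 0.05 against 19.1%, and DESeq2 called 2 higher. With the mesenteric libraries scaled on their own, Sdhd was higher in every deletion library than in every Sham library, as were 3.22% of all genes, with 3.68% lower, and no other member kept apart. Sdhd had a log2 fold change of 0.27 ± 0.0869 there (adjusted p = 0.149, edgeR). The median member was at 0.00592, with 22 estimates on each side of 0.

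Whether the AngII response differed between the vessels was tested as an interaction over all 26 libraries. No member passed by edgeR, where 2.34% of all genes differed, 0.68% upward and 1.66% downward, and DESeq2 and limma voom called none. Of the 44, 2 members had an unadjusted p below 0.05 against 15.2%. The median difference, mesenteric minus aorta, was 0.119 and 37 of 44 were above 0. It was 0.0186 without aortic Sham 4 and 0.22 without aortic AngII 3. Cox8a differed by 0.54 ± 0.233 (adjusted p = 0.254, edgeR). In the response to deletion no member and no other gene differed by edgeR, and DESeq2 and limma voom called no member. Ndufb2 alone had an unadjusted p below 0.05, against 4.04% of all genes, with a difference of -0.36 ± 0.137 (adjusted p = 0.953, edgeR). The median member difference was -0.0114.

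Under Sham conditions the 2 vessels differed in single subunits in both directions. By edgeR 1 member was higher in mesenteric arteries, where 20.7% of all genes were, and 5 were lower, where 17.7% were. An unadjusted p below 0.05 was reached by 8 members, against 46.3% of all genes. Sdhc was the one that was higher, by 0.53 ± 0.117 on the log2 scale (adjusted p = 0.000855). Its Sham mesenteric libraries were at 156.9, 173.7, 202.8 and 148.9 CPM, all above the 102.2 to 134 of the Sham aortas. Ndufa6 was lower, at -0.51 ± 0.105 (adjusted p = 0.000393), with mesenteric Sham libraries at 38.4, 35.5, 29.4 and 38.7 CPM. So were Cox7b (-0.71 ± 0.167, adjusted p = 0.00146), Sdhd (-0.40 ± 0.143, adjusted p = 0.0306), Cox5a (-0.46 ± 0.174, adjusted p = 0.0422) and Uqcrb (-0.34 ± 0.136, adjusted p = 0.0492), all by edgeR. The calls of Sdhc, Ndufa6 and Cox7b held whichever library was left out, and those of Sdhd, Cox5a and Uqcrb were lost in 3, 4 and 20 of 26 such fits. Without aortic Sham 4, Sdhd was at -0.187 (adjusted p = 0.195), Cox5a at -0.201 (adjusted p = 0.282) and Uqcrb at -0.328 (adjusted p = 0.085) by edgeR, and without mesenteric Sham 4 Uqcrb had an adjusted p of 0.164. With the brown marker level in the model Cox7b, Sdhd, Cox5a and Uqcrb turned positive, and Sdhd was then called higher, at 0.58 (adjusted p = 0.0393, edgeR). That level, a mean log2 CPM, ran from 2.93 to 4.51 in the aorta and from 1.11 to 1.87 in mesenteric arteries. It did not overlap between the vessels, so this fit cannot separate vessel from marker level. Markers of other cells differed between the vessels too: in Sham mesenteric arteries 8 of 8 endothelial markers and 8 of 10 gut and pancreas markers were higher, and of 13 brown adipocyte markers 10 were lower and 3 higher. Their part in the subunit differences was not tested. Without aortic Sham 4, edgeR called 2 members higher and 2 lower and the median went from -0.105 to 0.02. Leaving out a mesenteric Sham library left 2 lower calls without Sham 4, and 3 without Sham 2 or Sham 3.

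Brown fat genes were then set beside the subunits in each library. In Sham aorta Ucp1 was at 88.7, 49.8, 32.1 and 369.9 CPM, in AngII aorta at 119.1, 76.8, 106.1 and 16.1, and in the deletion group at 110.3, 219.5, 61.6, 196.1 and 255. Cidea, a lipid droplet protein of brown adipocytes, ran from 15.7 CPM in AngII 4 to 132 in Sham 4. The mean log2 CPM of the 14 brown markers was 3.38, 3.06, 2.95 and 4.51 in Sham aorta, 3.73, 3.48, 3.41 and 2.93 in AngII aorta and 3.83, 4.14, 3.39, 4.06 and 4.19 in the deletion group. The mean log2 CPM of the 44 subunits in the same libraries was 5.69, 5.89, 5.7 and 6.19, then 5.74, 5.62, 5.96 and 5.36, then 5.88, 5.85, 5.64, 5.66 and 5.88. The same 2 libraries stood at the ends of both scales. In mesenteric arteries the brown level was between 1.11 and 1.87, and the subunit level between 5.54 and 6.09.

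**Figure D3:**
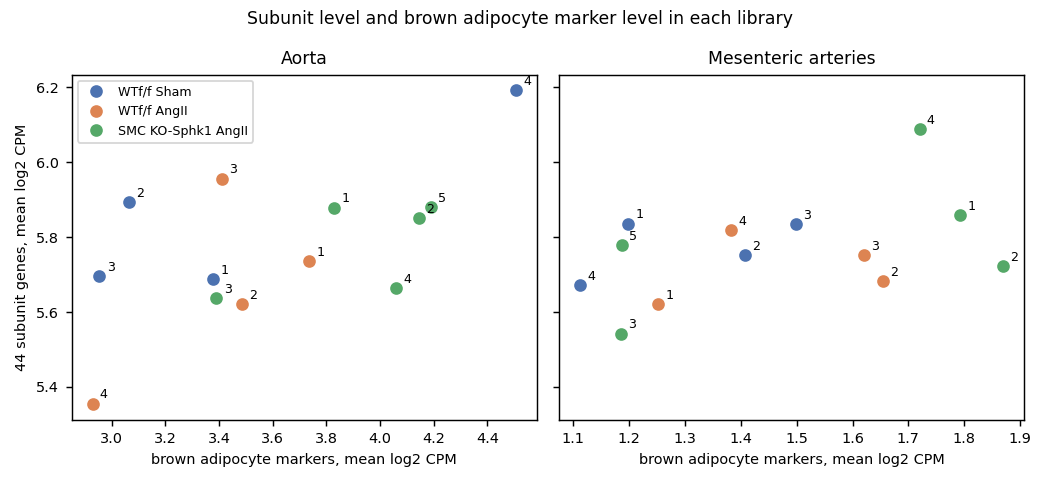
Mean log2 CPM of the 44 subunit genes against that of the 14 brown adipocyte markers in each library, numbered by replicate and coloured by group. Aorta is on the left and mesenteric arteries on the right, on a common vertical scale with different horizontal ranges. Aortic Sham 4 (4.51, 6.19) and AngII 4 (2.93, 5.36) lie at opposite corners.

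Which subunits followed the brown marker level was tested with edgeR by adding that level to the aortic model beside the group, so that a slope is the change in log2 CPM per unit of marker level among libraries of the same group. This test was chosen after the data had been seen. It called 10 of 44 members as rising, 22.7%, where 2.35% of all genes rose, and none as falling, where 0.237% did. Of the 13 brown markers tested, which make up that level, 8 rose and 10 had slopes above 0. Dio2, Prdm16 and Gyk had slopes below 0, at -0.351, -0.17 and -0.1209. The marker list includes Ppargc1a, the coactivator of mitochondrial biogenesis. Markers of adipocytes in general rose with the same level, 7 of 12 with a median slope of 1.31, and the separate parts of brown and other adipocytes were not tested. The median slope of the members was 0.278 against -0.00813 over all genes, and 43 of 44 slopes were above 0. By complex, 3 of 24 subunits of complex I, 3 of 4 of complex II, 3 of 7 of complex III and 1 of 9 of complex IV rose. The complex II genes were Sdha (slope 0.50 ± 0.058, adjusted p = 0.00021), Sdhb (0.53 ± 0.0861, adjusted p = 0.00275) and Sdhd (0.49 ± 0.0759, adjusted p = 0.00208). Those of complex III were Uqcrfs1, the Rieske iron-sulfur protein (0.54 ± 0.0817, adjusted p = 0.00164), Uqcrc2, a core protein (0.39 ± 0.0676, adjusted p = 0.00497), and Cyc1 (0.44 ± 0.0922, adjusted p = 0.0159). Complex I gave Ndufs1, Ndufa10 and Ndufv1, with slopes of 0.32, 0.50 and 0.40, and complex IV gave Cox5a, at 0.59 ± 0.0968 (adjusted p = 0.00294).

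These calls rested on few libraries. In Sham aorta Cox5a, a matrix-side subunit of complex IV, was at 46.8, 46.6, 45.2 and 85.2 CPM, and Uqcrfs1 at 55.8, 57.3, 51.8 and 102.3. Sham 4 was the high library in both. Without it 1 member rose, and 18 did without AngII 3. Without the 2 libraries farthest from the median marker level, Sham 4 and KO 5, no member rose by edgeR, and the median slope was 0.233. In mesenteric arteries no member and no other gene had a called slope. The median member slope there was 0.236, and 3 members had an unadjusted p below 0.05. Ucp1 was at most 0.22 CPM there and 9 of the 14 brown markers passed the filter, so the level is no clear measure of brown fat. All 10 lymphocyte markers had mesenteric slopes below 0, with a median of -5.45. All 12 markers of adipocytes in general had slopes above 0, with a median of 2.73.

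The fourth complex II subunit, Sdhc, had a slope of 0.09, the lowest of its complex. All 5 members that were lower in the deletion group than in Sham had slopes below the median member, from 0.07 for Ndufa2 to 0.20 for Ndufa6. Calls and slopes came from the same aortic libraries, so they are not independent, and a link between them was not tested. With the brown marker level held in the model, edgeR called 5 members lower in AngII than in Sham aorta, with a median of -0.172. It called 10 lower in the deletion group than in Sham, with a median of -0.224. For the deletion group against AngII the median was -0.0493 and no member was called. In the fits without that level, 10.8% of all genes were lower in AngII than in Sham and 14.2% in the deletion group. The shares of all genes with the level in the model are not given here, so these counts are not a result about the subunits alone. Other mitochondrial lists were read by the same slope on the brown marker level, with which 2.35% of all genes rose. Of the fatty acid oxidation list, which shares Cpt1b with the brown markers, 15 of 18 genes rose with a median slope of 0.646. Of the tricarboxylic acid cycle 13 of 17 rose with a median of 0.426, and of the 13 protein genes of mitochondrial DNA 7 rose with a median of 0.624. ATP synthase had 1 of 18 and a median of 0.16, the other complex I genes 2 of 13 and 0.236, and the assembly factors 0 of 40 and 0.0956, where 7 had an unadjusted p below 0.05. Among 10 smooth muscle markers none rose and all slopes were below 0, with a median of -0.391. The slopes of these lists without Sham 4 are not given here. Without that library 1 member rose instead of 10.

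Several subunits have a second form made from another gene, and those forms were looked at apart from the 44. Cox8b and Cox7a1 are the muscle and brown fat forms. Cox8b was at 11.1, 7.49, 9.16 and 48.5 CPM in Sham aorta, at 31.5, 15.1, 24.7 and 2.72 in AngII aorta and at 35.9, 31.8, 13.3, 24.1 and 38.3 in the deletion group. Cox7a1 was at 4.79, 4.12, 2.86 and 21.3 CPM, then at 11, 4.45, 9.5 and 1.36, then at 12.6, 11.3, 4.8, 9.8 and 16.4. Both were highest in Sham 4 and lowest in AngII 4, as Ucp1 was. Their slopes on the brown marker level were 1.94 ± 0.355 (Cox8b, adjusted p = 0.0144) and 1.98 ± 0.294 (Cox7a1, adjusted p = 0.00256) by edgeR. Slopes of these 2 genes without Sham 4 are not given here. In mesenteric arteries Cox8b was at 0.318 to 3.43 CPM and Cox7a1 at 0.374 to 2 CPM. In Sham mesenteric arteries they were lower than in Sham aorta, with log2 fold changes of -4.77 ± 0.803 for Cox8b (adjusted p = 4.81e-05) and -3.77 ± 0.673 for Cox7a1 (adjusted p = 9.6e-05) by edgeR.

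Ndufa4l2, a paralogue of Ndufa4 that is induced by hypoxia, was higher in infused aorta. It was at 7.92, 10.7, 6.86 and 7.6 CPM in Sham, at 23.8, 17.4, 29.5 and 13.8 in AngII, and at 20.2, 16.3, 16.5, 18.2 and 25.5 in the deletion group. Every infused aorta was above every Sham aorta. Ndufa4l2 rose after AngII by 1.34 ± 0.226 on the log2 scale (adjusted p = 0.000851, edgeR), and the deletion group differed from AngII by -0.13 (adjusted p = 0.984). In mesenteric arteries it was at 16.8, 19.8, 19.6 and 18.5 CPM in Sham, 14.8, 11.5, 14 and 13.7 in AngII, and 16.4, 14, 12.1, 9.89 and 12.9 in the deletion group. The mesenteric log2 fold change after AngII was -0.47 ± 0.136 (adjusted p = 0.238, edgeR), and the difference between vessels was -1.82 ± 0.276 (adjusted p = 0.000698). Ndufa4 itself, the member, was at 75.2 to 126 CPM in the aorta and at 67.3 to 114 in mesenteric arteries and was not called in any comparison between groups. The slope of Ndufa4l2 on the brown marker level was 0.15 (adjusted p = 0.859, edgeR). Hif1a, the hypoxia-inducible transcription factor, rose in AngII aorta by 0.60 ± 0.139 (adjusted p = 0.006, edgeR).

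**Figure D4:**
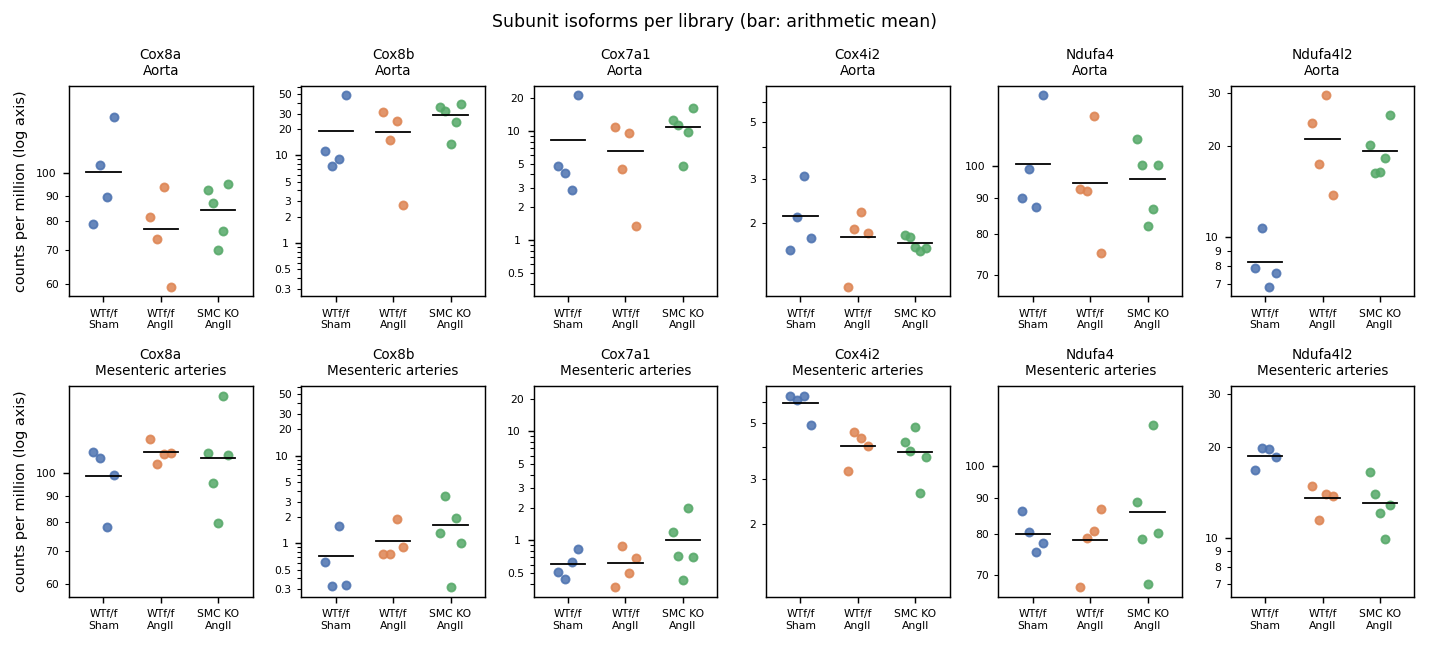
CPM, on log axes, of the members Cox8a and Ndufa4 and of the alternative forms Cox8b, Cox7a1, Cox4i2 and Ndufa4l2 in every library, with aorta above and mesenteric arteries below. Points are libraries and bars the arithmetic mean. In the aorta, every infused library lies above every Sham library for Ndufa4l2.

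Cox6b2, the testis form of Cox6b, was low but rose in AngII aorta by 0.94 ± 0.233 (adjusted p = 0.00856, edgeR). Its aortic values were 2.26, 2.42, 2.45 and 1.83 CPM in Sham, 4.58, 3.92, 6.09 and 2.79 in AngII, and 5.48, 4.16, 5.24, 4.58 and 3.17 in the deletion group, with no overlap between Sham and either infused group. In mesenteric arteries it was at 3.75 to 6.5 CPM in all groups. The response differed between vessels by -1.15 ± 0.276 (adjusted p = 0.0276, edgeR). That call was lost without any one of 6 libraries, with an adjusted p of up to 0.0752 without aortic Sham 4. Cox4i2, the form of Cox4 found in lung and in oxygen-sensing vessels, was higher in Sham mesenteric arteries than in Sham aorta. It was at 6.38, 6.13, 6.37 and 4.89 CPM in Sham mesenteric arteries and at 1.13 to 3.08 in the aorta, a difference of 1.48 ± 0.217 (adjusted p = 7.24e-06, edgeR). In AngII mesenteric arteries it was at 3.21, 4.61, 4.36 and 4.04 CPM, and in the deletion group at 4.18, 3.87, 4.81, 2.64 and 3.64. Both infused groups lay below all mesenteric Sham libraries, while the lowest, 2.64, was inside the aortic range. The log2 fold change of AngII over Sham was -0.55 ± 0.192 (adjusted p = 0.338, edgeR).

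Other genes of oxidative metabolism were read in AngII aorta by the same test, in which 10.8% of all genes were called lower and 14.7% higher. The counts of calls in these lists are to be read beside those shares. Of 13 complex I genes outside the 44, edgeR called 2 lower, Ndufv3 (-0.40 ± 0.0932, adjusted p = 0.00642) and Ndufb1 (-0.35 ± 0.12, adjusted p = 0.042), with a median of -0.198. The entry read as Ndufb1 is named Ndufb1-ps in the gene names used and has no protein-coding transcript there, so its identity is uncertain. Of 18 ATP synthase genes 1 was lower, Atp5f1c, and the median was -0.141. None of the 13 protein genes of mitochondrial DNA was called, and their median was -0.163. Of 40 assembly factors 4 were lower, among them Surf1, which assembles complex IV, at -0.36 (adjusted p = 0.01, edgeR), with a median of -0.0977. In the tricarboxylic acid cycle Suclg2, a subunit of succinyl-CoA synthetase, fell by 0.71 ± 0.0569 (adjusted p = 3.48e-06, edgeR) and Idh2, mitochondrial isocitrate dehydrogenase, by 0.55 ± 0.0745 (adjusted p = 0.00012), the 2 calls among 17 genes. These falls were larger than that of any called subunit. Ldhb, lactate dehydrogenase B, fell by 0.75 (adjusted p = 0.00012, edgeR), 1 of 3 lower among 16 glycolysis genes. Fatty acid oxidation had no call among 18 genes and a median of -0.201. Ppargc1a, the coactivator of mitochondrial biogenesis, was at 2.44 to 7.38 CPM in the aorta and at 5.65 to 14.5 in mesenteric arteries, and was higher in Sham mesenteric arteries by 1.21 ± 0.345 (adjusted p = 0.00751, edgeR). In mesenteric arteries no gene of these lists was called after AngII, and the Suclg2 response differed between vessels by 0.68 ± 0.15 (adjusted p = 0.016, edgeR).

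The identity of some members is uncertain in these counts. For 8 members (Ndufb3, Ndufb9, Ndufs3, Uqcrc2, Uqcrb, Cox6c, Cox7b and Cox7c) another annotated gene holds a stretch of at least 150 bases, the length of 1 read, that is at least 95% identical, so reads could have been split or discarded. Ndufb9 also has 28.6% of its exon bases on the same strand as another gene, Gm49356. A further uncertainty is strand: 4 members (Cox5a, Uqcrc2, Ndufb5 and Ndufa2) have over 10% of their exon bases opposite another gene. No source used here gives the strand setting of the counting.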

How the data were processed

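The labels' protocols give PureLink RNA Micro extraction, NEBNext Ultra II Directional poly(A) libraries and paired NovaSeq reads. The deposited values are whole-number read counts for Ensembl genes in a table for each library, made with cutadapt, HISAT2 and HTSeq on GRCm39 per the submitters' processing notes; versions, annotation release and strand setting are not given in the sources used here. HTSeq's 5 summary lines stayed out of library sizes (0.5717 to 14.7% of records not aligned). No count table was a copy of another: over 22 same-group pairs per tissue, chi-square per degree of freedom was 8.41 to 156.7 in aorta and 17.97 to 231.6 in mesenteric arteries.

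Each tissue's 13 libraries, or all 26, were fitted by edgeR 4.0.16 (R 4.3.3) with filterByExpr, TMM scaling and the robust quasi-likelihood F test, Benjamini-Hochberg adjusted over all genes (16863, 17513 and 18520). Printed CPM is TMM-scaled over 26 libraries, and log2 CPM has a prior count of 2. P-values measure the spread between these libraries. Values per kb use the first protein-coding GENCODE M21 transcript. Alternatives were DESeq2 1.42.0, limma 3.58.1 voom, other scalings and filters, a brown marker covariate, the replicate block and libraries left out. The methods were tested on simulated data.

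The members and lists were chosen with earlier results of these data known. Genes were given in every library by rule: in each tissue the member of smallest p per complex after AngII and the 2 of smallest p for the deletion. Alternative subunit forms, Ucp1, Cidea, Ppargc1a and up to 3 called genes per other list were named too. Further members were named after their values were seen.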

Additional observations from a re-analysis of the deposited data

Results flagged for a closer look

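Of 162 groups of 4 or 5 libraries looked at, 11 had 1 library far from the rest, and chance gives about 1 in 20. Aortic Sham 4 was the high library in 7 of them. Its 13 genes of mitochondrial DNA summed to 63000 CPM with the next Sham library at 39900, and its complex II genes to 720 with the next at 468. It also stood apart in Ndufs1 (124, next 88.9 CPM), Sdhd (102, next 63.2), Cyc1 (120, next 75.7), Cox5a (85.2, next 46.8) and the brown fat form Cox8b (48.5, next 11.1).

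Mesenteric Sham 3 was low in the genes of mitochondrial DNA, at 19100 CPM with the next at 49400, while its nuclear subunits summed to 3154 CPM, the highest of the 4. Aortic KO 4 was low in Ndufb2 (6.85, next 8.27 CPM), mesenteric Sham 4 low in Cox4i2 (4.89, next 6.13) and mesenteric AngII 3 high in Cox8b (1.89, next 0.903).

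The AngII response differed between the vessels for 2 alternative forms, by an interaction test in edgeR. For Ndufa4l2 the difference, mesenteric minus aorta, was -1.82 ± 0.276 (adjusted p = 0.000698), and for Cox6b2 it was -1.15 ± 0.276 (adjusted p = 0.0276).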

How the results depend on the processing

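Over all results and alternatives, 1569 values kept their direction and side of the threshold or moved little. Another 71 calls were lost and 8 gained, 39 values moved and 5 reversed. Counts of members under the alternatives, here and above, come without the share of all genes called in the same fit. They do not show a change particular to the members. For AngII against Sham in aorta, 2 members were lower, against 16 with library size alone (which moved the median of all genes to -0.126), 10 with limma voom, 4 with DESeq2, 5 with the brown marker covariate, 0 with only those 2 groups fitted, and 1 to 14 with 1 library left out. For the deletion group against Sham in aorta, 5 were lower, against 10 with that covariate and 1 to 7 with 1 library left out, where 0 to 1 were higher. In mesenteric arteries DESeq2 called 2 members higher in that comparison. For mesenteric against aortic Sham, 5 were lower and 1 higher, against 2 lower with library size alone, 8 with voom, 3 with no filter, and 2 to 7 lower and 1 to 2 higher with 1 library left out. With the covariate, which differs between the vessels throughout, 15 were higher, 0 lower and the median was 0.604. Cox5a then went to 0.63, Sdhd to 0.58, Uqcrb to 0.18, Cox7b to 0.0774 and Cox8b to 0.25, all reversed; the cause was not tested.

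Chosen after seeing the data were the slopes and their alternatives, and the fit without aortic Sham 4 and AngII 4. That fit gave 0 lower members after AngII, a median of -0.0209, and 3 higher members for the deletion group against Sham. Of 44 members, 10 rose with the brown level in aorta, against 0 without the 2 farthest libraries, 19 with Ucp1 alone as the level and 1 to 18 with 1 library left out. The mesenteric median slope was 0.462 without its 2 farthest libraries.

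The labels do not say that a replicate number pairs samples. Same-numbered libraries deviated together with r above 0.1 in 1 of 12 aortic and 7 of 12 mesenteric pairs, and in 3 of 13 across vessels. Mesenteric pairs with different numbers reached a higher r, 0.686, than those with the same number, 0.343. The medians of those mesenteric pairs were 0.0135 and 0.119, so the numbers are not shown to pair samples. With the number as a replicate block, 2 members were lower in the deletion group than in Sham aorta, and 2 were lower in mesenteric than in aortic Sham. The Cox6b2 interaction had an adjusted p of 0.107 (edgeR).

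The median SE of the members' log2 fold change after AngII was 0.135 in aorta and 0.125 in mesenteric arteries.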
